A study of Mus musculus with 24 samples.

Results

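The comparison set microglia of mice that had the BCAS operation and were given the exosomes labelled ND-Exos against microglia of sham-operated mice, gene by gene. Its members were 12 of the 24 libraries of the study, 6 ND-Exos and 6 Sham, taken by their library names, and all 15878 genes with values in the count table. Microglia were sorted from the brain by fluorescence-activated cell sorting, and their RNA was amplified with Smart-seq2, a method made for small amounts of RNA. The Sham mice had phosphate-buffered saline (PBS), and the ND-Exos mice had 100 µg of exosomes by tail vein every 3 days up to day 28. The labels give the genotype of all mice as WT and no age or sex, and the series title names foam cells, which are macrophages filled with lipid, as the source of exosomes. What ND stands for is not given. The other groups, of 6 libraries each, were operated mice given PBS (BCAS) and operated mice given the exosomes labelled WD-Exos. Because ND-Exos and Sham mice differed in both the operation and the exosomes, those factors cannot be told apart within this comparison, and values of the BCAS group are given beside the main results.

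Microglia are the resident macrophages of the brain, and in the healthy brain they express surface receptors such as P2ry12 with which they sense nucleotides released by other cells. BCAS, bilateral carotid artery stenosis, narrows the carotid arteries and lowers blood flow to the forebrain, and it is used as a model of chronic ischemic injury of white matter. Exosomes are small vesicles that cells release and that macrophages take up readily. Ribosomal proteins, which come up repeatedly in the results, are the protein components of the large and small subunits of the ribosome, and their mRNAs are known for a run of pyrimidines at the 5′ end through which nutrient signalling controls their translation.

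Levels are given as CPM, a library's counts scaled by the edgeR convention to a common total, and each fold change is the fitted log2 ratio of ND-Exos to Sham with its standard error (SE). Library totals were 24844907 to 27483461 counts in ND-Exos and 25123405 to 28601008 in Sham, and 9186 to 10603 and 9152 to 10258 genes had a count, respectively. Neither totals nor detected genes differed beyond the spread of the libraries (exact two-sided permutation tests, adjusted p = 0.511 for both). Of the 10219 genes tested, 44.2% had no count in at least 1 of the 12 libraries, and the SE of the log2 fold change had a median of 1.1 among all tested genes and of 0.24 among the 1423 whose mean exceeded 100 CPM. Differences of the size found in abundant genes could therefore not be detected in scarce ones. No label ties a sample to a mouse of its own or to a batch. The p-values thus reflect the spread among these samples, part of which may be technical.

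The 10 microglial markers summed to 32937 to 57869 CPM in the ND-Exos libraries and 41475 to 50481 CPM in the Sham libraries. Markers of other brain and blood cells overlapped between the groups in all 13 lists examined. The summed markers of oligodendrocytes came to 3871 to 8208 CPM in the ND-Exos libraries and 3549 to 13697 CPM in the Sham libraries, and the most abundant of them was Trf, the transferrin gene, at a mean of 4072 CPM. Border macrophage markers stood at 234 to 896 CPM in the ND-Exos libraries and 306 to 1603 CPM in the Sham libraries, and endothelial markers at 486 to 768 CPM in the ND-Exos libraries and 574 to 2036 CPM in the Sham libraries. Bsg, the most abundant endothelial marker, had a mean of 621 CPM. The endothelial sum was highest in Sham replicates 3 (2036 CPM) and 5 (1144.5 CPM), and which markers made up those sums was not examined. Erythroid markers were at 0 in all ND-Exos libraries and neuronal markers did not pass 76.4 CPM there. Several libraries stood apart in single marker lists. Sham replicate 4 had the highest oligodendrocyte sum of all 12 (13697 CPM), Sham replicate 2 the highest mural cell sum (1027 CPM) and Sham replicate 1 the highest neuronal sum (351 CPM). ND-Exos replicate 3 stood apart in 4 lists and in detected genes. It had the lowest microglial sum (32937 CPM), the highest oligodendrocyte sum of its group (8208 CPM) and a median correlation of 0.808 with the other ND-Exos libraries, across genes above 100 CPM on the log2(CPM + 1) scale, where the whole group's median was 0.861. Counts of genes past the threshold are given with each library left out, and single genes that change without ND-Exos replicate 3 are given both ways. In bulk samples like these, fewer cells of a type and less RNA per cell cannot be told apart.

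Operated mice given ND-Exos differed from sham mice in 11 genes at an adjusted p under 0.05, which is 0.108% of the 10219 tested (edgeR's quasi-likelihood test with Benjamini-Hochberg adjustment). The 4 genes that rose (0.0391%) encode regulators of RNA and transcription and a cytoskeletal linker, Qk, Foxn3, Zfhx3 and Macf1. The 7 that fell (0.0685%) were 6 ribosomal protein genes and Arsb, a lysosomal sulfatase. Before adjustment 681 genes (6.66%) had a p under 0.05, 337 of them higher (3.3%) and 344 lower (3.37%). Every ND-Exos library lay above every Sham library in 30 genes (0.294%) and below in 87 (0.851%), and all 11 genes past the threshold were among these. All 11 also had a mean above 100 CPM. With size factors of the DESeq2 type in place of TMM the count was again 11, but 6 of them higher and 5 lower, and 9 were shared. The voom method called 45 genes and DESeq2 225, with all 11 among both. The list of calls hung on single libraries. Leaving out 1 library at a time gave 0 genes without Sham replicate 1, 3, 4, 5 or 6 or ND-Exos replicate 1, 4 or 6. It gave 1 without ND-Exos replicate 5 (Qk), 2 without ND-Exos replicate 2, 5 without Sham replicate 2 and 25 without ND-Exos replicate 3, so that each of the 11 genes missed the threshold in at least 8 of the 12 fits.

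**Figure D1:**
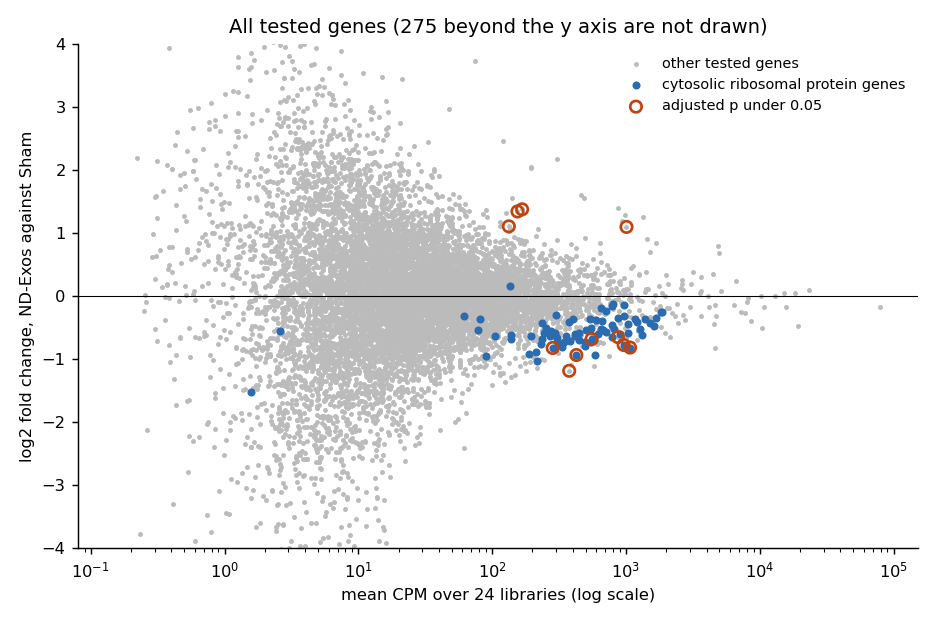
Each point is a tested gene, with its mean CPM over the 24 libraries on a log axis and its fitted log2 fold change of ND-Exos against Sham. Cytosolic ribosomal protein genes lie below 0 almost throughout, with a median of -0.58, while genes past the threshold all have a mean above 100 CPM. The 275 genes beyond a log2 fold change of 4 in either direction are not drawn.

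Taken over the 1423 genes above 100 CPM, the median size of the log2 fold change was 0.25 for ND-Exos against Sham, 0.22 for BCAS against Sham, 0.23 for WD-Exos against Sham and 0.18 for ND-Exos against BCAS, all close to or below the median SE of 0.24. In these genes an unadjusted p under 0.05 occurred in 291 for ND-Exos against Sham, 237 for BCAS against Sham and 267 for WD-Exos against Sham. For ND-Exos against Sham that is a larger share than the 6.66% of all tested genes. The share of a list of abundant genes is therefore to be read beside both. Operated mice without exosomes gave 0 genes at the same threshold (0% of tested genes, edgeR), with 617 genes at an unadjusted p under 0.05 (6.04%), and WD-Exos against Sham gave 0 with 551 unadjusted (5.39%). A gene past the threshold in ND-Exos and not in BCAS is not thereby shown to differ between them. The direct test, ND-Exos against BCAS, called 2 genes (0.0196%; 457 unadjusted, 4.47%), and neither was among the 11: their adjusted p there was 1 and their smallest unadjusted p was 0.0578. These comparisons share the Sham or ND-Exos libraries, so their values are set side by side only.

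Qk (Entrez gene 19317), which encodes Quaking, an RNA-binding protein that guides splicing and mRNA stability, rose, and had the smallest p of all tested genes. Its level was 530.5 to 791 CPM (median 606) in Sham and 974 to 1937 CPM (median 1236) in ND-Exos, so that the lowest ND-Exos library stood above the highest Sham library. The log2 fold change was 1.10 (SE 0.20), with an adjusted p of 0.0241 by edgeR's quasi-likelihood test. Qk was also high in the BCAS group, at a mean of 1173 CPM, and the log2 fold changes were 0.92 for BCAS against Sham and 0.56 for WD-Exos against Sham. It was 1 of 33 tested splicing factors, and no other of them passed. The remaining members of that list were divided, 16 of the 33 higher and 17 lower in all, with a median of -0.04.

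Foxn3 (Entrez gene 71375), a forkhead transcription factor that represses its targets, had 29.1 to 122 CPM (median 71.7) in Sham and 138 to 229.7 CPM (median 200.3) in ND-Exos. The rise was 1.34 (SE 0.25) on the log2 scale with an adjusted p of 0.0241. Zfhx3 (Entrez gene 11906), a large zinc finger and homeobox transcription factor, went from 63.5 to 109 CPM (median 80.6) in Sham to 126 to 232 CPM (median 183) in ND-Exos, a log2 fold change of 1.11 (SE 0.21) at an adjusted p of 0.0241. The groups did not overlap in either gene, and in Foxn3 the ND-Exos library nearest to Sham was replicate 3, at 138 CPM. Macf1 (Entrez gene 11426) encodes a giant protein that links microtubules to actin. Its Sham libraries spanned 23.1 to 128 CPM (median 101), pulled down by replicate 4 at 23.1 CPM, and the ND-Exos libraries 187 to 332 CPM (median 242), again without overlap. Macf1 had a rise of 1.38 (SE 0.28) at an adjusted p of 0.0468, which differs from that of Foxn3 by less than either SE. Without ND-Exos replicate 3 the log2 fold changes were 1.28 for Macf1 and 1.43 for Foxn3. For Macf1 no fit that left out a library kept the adjusted p under the threshold (0.0503 to 0.133). BCAS against Sham gave 1.15 for Foxn3, 0.91 for Zfhx3 and 0.89 for Macf1, none of them past the threshold, whereas WD-Exos against Sham gave 1.20, 0.32 and 0.65.

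**Figure D2:**
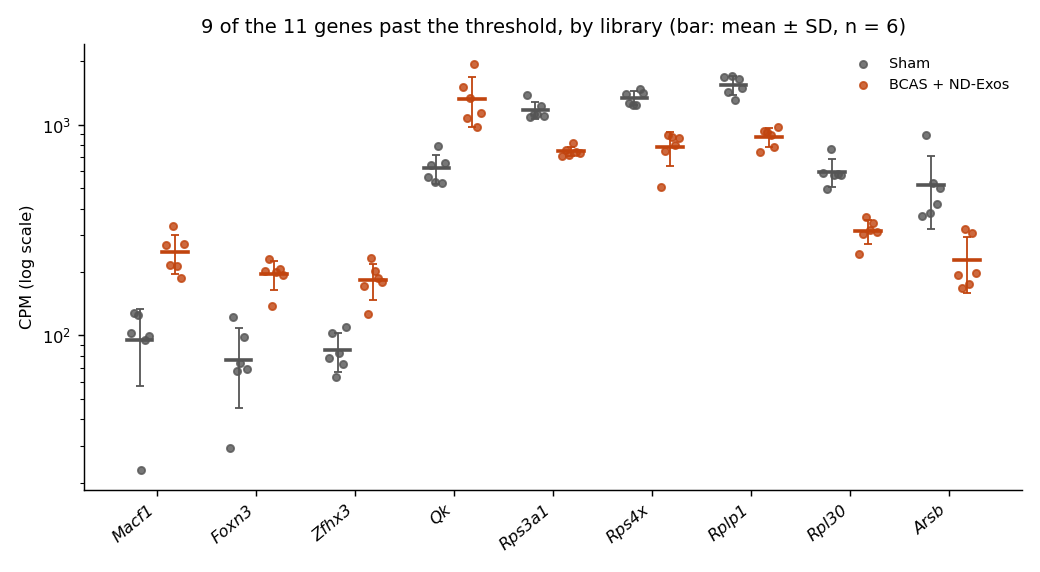
CPM on a log axis of 9 of the 11 genes past the threshold, 1 point a library, with the mean and SD of the 6 Sham and the 6 ND-Exos libraries. In each gene the points of the groups do not overlap, which run by fitted log2 fold change from Macf1 (1.38) on the left to Arsb (-1.19) on the right, and single libraries lie far from their group in Macf1, Rps4x, Rpl30 and Arsb.

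Ribosomal protein genes were 6 of the 7 genes past the threshold that fell. Members of the list of cytosolic ribosomal proteins were 72 of the 344 genes lower at an unadjusted p under 0.05. A run of pyrimidines was looked for near the annotated transcription start, which does not show where an mRNA begins in these cells. The 55 bases around that start, 40 before it and 15 from it on, are printed for 6 members. Rps4x was past the threshold, and Rps3, Rps24 and Rplp2 were the lower genes next to it. Rpl27a and Rpl10 passed without ND-Exos replicate 3. The sequences are RefSeq's for assembly GRCm38.p6, written 5′ to 3′ on the gene's own strand, and capitals mark a run that begins with C, goes on with at least 4 bases each C or T, and starts within 10 bases of the annotated start.
Rps4x (chrX:102189377-102189431, minus strand): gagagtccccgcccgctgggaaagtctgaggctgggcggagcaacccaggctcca
Rps3 (chr7:99483695-99483749, minus strand): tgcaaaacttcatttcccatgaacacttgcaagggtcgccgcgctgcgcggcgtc
Rps24 (chr14:24490638-24490692, plus strand): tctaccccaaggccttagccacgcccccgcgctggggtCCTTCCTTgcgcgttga
Rplp2 (chr7:141447611-141447665, plus strand): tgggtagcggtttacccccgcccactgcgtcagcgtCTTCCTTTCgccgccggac
Rpl27a (chr7:109519155-109519209, plus strand): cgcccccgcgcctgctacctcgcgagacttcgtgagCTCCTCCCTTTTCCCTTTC
Rpl10 (chrX:74270776-74270830, plus strand): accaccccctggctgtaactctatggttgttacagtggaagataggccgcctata
Rps24, Rplp2 and Rpl27a carried such a run, and Rps4x, Rps3 and Rpl10 did not in this window. Of the 62 tested ribosomal protein genes with a window in the table, 39 held it (62.9%), against 37.6% of the 8343 tested genes with a window and 34.4% of all 27025 genes in the table. A match or its absence describes the letters near the annotated start only, bases before it included. It does not show whether an mRNA carries the run. Rplp1 and Rpl30 are named without a window.

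Rplp1 (Entrez gene 56040), an acidic protein of the stalk of the large subunit to which elongation factors bind, had the smallest p of the genes that fell. It ran at 1314 to 1697 CPM (median 1569) in Sham and 740.2 to 975 CPM (median 909) in ND-Exos. On the log2 scale the change was -0.82 (SE 0.15) at an adjusted p of 0.0241 (edgeR's quasi-likelihood test). Rplp2, its partner in the stalk, was at 418 to 596 CPM (median 471) in Sham and 184 to 342 CPM (median 274) in ND-Exos, without overlap, but with an adjusted p of 0.0607 it did not pass. Rpl30 (Entrez gene 19946), another protein of the large subunit, fell from 493 to 771 CPM (median 579) to 243 to 363 CPM (median 312), a change of -0.94 (SE 0.17) at an adjusted p of 0.0241. In the BCAS group Rplp1 had a mean of 958 CPM and Rpl30 of 396 CPM, with log2 fold changes against Sham of -0.69 and -0.59, neither past the threshold.

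Among proteins of the small subunit, Rps4x (Entrez gene 20102), the X-linked gene of its protein, had 1235 to 1481 CPM (median 1334) in Sham and 505 to 891 CPM (median 833) in ND-Exos, and a change of -0.78 (SE 0.16) at an adjusted p of 0.0468. In Rps4x, ND-Exos replicate 1 alone reached the low end, at 505 CPM. Rps3a1 (Entrez gene 20091) went from 1085 to 1377 CPM (median 1125) to 708 to 817 CPM (median 739), a change of -0.65 (SE 0.13) at an adjusted p of 0.0468. The groups stood apart in both genes. BCAS against Sham gave -0.58 for Rps4x and -0.56 for Rps3a1, neither past the threshold, with BCAS means of 898 and 793 CPM. Rps3, which besides its place in the ribosome acts in DNA repair, and Rps24 were just outside the threshold. Rps3 ran at 1439.5 to 1851 CPM (median 1557) in Sham and 1029 to 1190.3 CPM (median 1125) in ND-Exos with an adjusted p of 0.0532, and Rps24 at 609 to 878 CPM (median 669) and 311 to 505 CPM (median 398) with 0.0556. Ribosomal protein genes have many near-identical processed copies in the genome, and no source used here says how the authors' counting divided reads among copies, which leaves the levels of single members uncertain.

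Across the whole list of cytosolic ribosomal proteins, 83 of the 85 genes listed had enough counts to be tested and 82 of the 83 were lower in ND-Exos, against 50% of all tested genes. Past the threshold were 5 of them, all lower, with Rplp1, Rpl30 and Rps4x among these, and Rps3a1 is a sixth ribosomal protein gene that the name pattern behind the list does not take in. An unadjusted p under 0.05 in the lower direction was reached by 72, or 86.7%, where 3.37% of all tested genes reached it. Among the 1423 genes above 100 CPM, 291 reached that level in either direction. In 49 of the 83 every ND-Exos library lay below every Sham library, against 0.851% of all tested genes. The median log2 fold change was -0.58, against 0.00 over all tested genes. Of the 83 genes, 77 had a mean above 100 CPM. The large subunit had 49 of 50 genes lower with a median of -0.57, and the small subunit 31 of 31 with a median of -0.59.

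Members differed in size within that common direction. Among well-measured members, Rpl39 stood furthest down, at 299 to 375 CPM (median 323) in Sham and 91.6 to 216 CPM (median 166) in ND-Exos, with a log2 fold change of -1.03 (SE 0.24) and an adjusted p of 0.0781. Rpsa, whose protein is also known as the laminin receptor, had a log2 fold change of -0.94 (SE 0.22) with an adjusted p of 0.0733, which ranged from 0.0318 without ND-Exos replicate 3 to 0.226 without another library. Its level was 771 to 904 CPM (median 845) in Sham and 289 to 678 CPM (median 435) in ND-Exos, and replicate 3 held the highest ND-Exos value. At the other end Rps7, Rps19 and Rpl15 had log2 fold changes of -0.16, -0.14 and -0.12, each with an adjusted p of 1. The 1 gene on the other side was Rpl7l1, a relative of Rpl7 with a role in ribosome assembly. It had 96 to 199 CPM (median 137) in Sham and 107 to 201 CPM (median 169) in ND-Exos, a log2 fold change of 0.16 (SE 0.27) and an adjusted p of 1.

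Summed, the ribosomal protein genes took 5.63 to 6.96% of all counts in the Sham libraries (median 6.02%) and 3.69 to 5.13% in the ND-Exos libraries (median 4.59%). The highest ND-Exos library was thus below the lowest Sham library. The means were 6.12% ± 0.53 (SD, n = 6) in Sham and 4.54% ± 0.49 (SD, n = 6) in ND-Exos. The share was 4.46% ± 0.80 (SD, n = 6) in BCAS and 4.21% ± 0.65 (SD, n = 6) in WD-Exos. The median log2 fold change of the list was -0.47 for BCAS against Sham and -0.57 for WD-Exos against Sham, which use the same Sham libraries, and -0.07 for ND-Exos against BCAS. The mitochondrial ribosomal proteins, which serve the ribosomes inside mitochondria, were evenly divided, 39 of 78 higher and 39 lower, with a median of -0.01 (0.00 with size factors of the DESeq2 type).

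**Figure D3:**
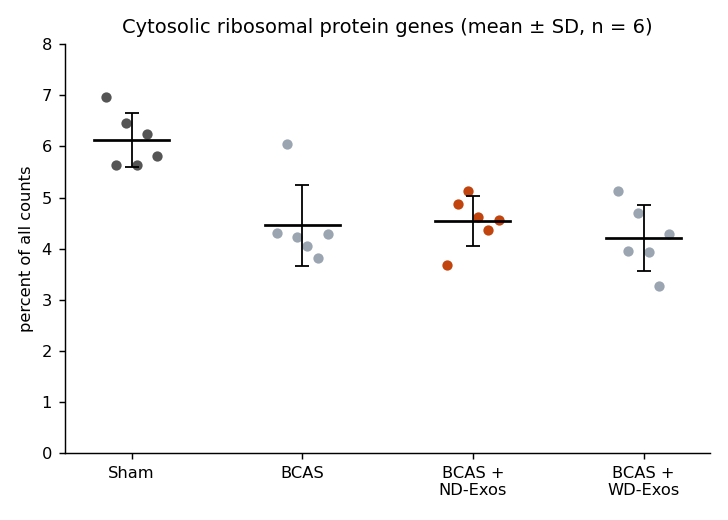
Percent of all counts that fell on cytosolic ribosomal protein genes, 1 point a library, with the mean and SD of each group of 6. The ND-Exos libraries (3.69 to 5.13%) lie below all Sham libraries (5.63 to 6.96%), and the BCAS and WD-Exos groups have means of 4.46% and 4.21%.

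Transcript length moved in the same direction as this result. Ribosomal protein genes had short annotated transcripts, with a median of 628 bases against 1335 over all tested genes. A gene's length here is the median over its annotated transcripts, which need not be the length of the mRNA it expresses. When the genes above 100 CPM were divided by length into 5 sets of like size, the median log2 fold change went from -0.13 in the shortest set through -0.07, -0.05 and -0.03 to 0.03 in the longest. With the ribosomal protein genes left out, the medians were -0.06, -0.04, -0.02, -0.04 and 0.04. With them kept, the medians from shortest to longest set went from -0.10 to 0.13 for BCAS against Sham. For WD-Exos against Sham they went from -0.20 to 0.13. The part of length in the fall of single genes was not tested.

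Of 40 tested translation factors 29 were lower and 11 higher, with a median of -0.20, and none passed the threshold. An unadjusted p under 0.05 was found for 1 higher and 5 lower, 15% of the list against 6.66% of all tested genes. Among the 1423 genes above 100 CPM, 291 had such a p, a larger share than among the translation factors. The list's median for BCAS against Sham was -0.12. Eef1a1, the elongation factor that brings aminoacyl-tRNA to the ribosome, had 9049 to 11486 CPM (median 10074) in Sham and 6304 to 8954 CPM (median 8079) in ND-Exos. The groups did not overlap, yet the log2 fold change of -0.40 (SE 0.10) had an adjusted p of 0.11. Eef1b2, a subunit of the factor that recharges it with GTP, had a log2 fold change of -0.76 (SE 0.19) with an adjusted p of 0.122. The BCAS values against Sham were -0.32 for Eef1a1 and -0.48 for Eef1b2.

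Arsb (Entrez gene 11881) encodes arylsulfatase B, the lysosomal enzyme that takes sulfate groups off dermatan and chondroitin sulfate. Its level was 369.7 to 891 CPM (median 460.5) in Sham and 168 to 319 CPM (median 196) in ND-Exos, the highest Sham value being that of replicate 2. It fell by 1.19 on the log2 scale (SE 0.24) with an adjusted p of 0.0468. BCAS had a mean of 316 CPM and WD-Exos of 448 CPM, with log2 fold changes of -0.71 and -0.20 against Sham. Of the list of lysosomal proteins and cathepsins 14 of 31 tested members were higher and 17 lower, with a median of -0.05, and none passed. The median stayed below 0 in all 22 alternatives (-0.13 to -0.0028). An unadjusted p under 0.05 was found for 0 higher and 5 lower members, Ctsd, Lamp1, Psap, Grn and Man2b1. They were 16.1% of the list, against 6.66% of all tested genes and 291 of the 1423 genes above 100 CPM. The last of these shares is larger than that of the list. The list's median for BCAS against Sham was 0.09. Psap, the precursor of the saposins, had a log2 fold change of -0.32 (SE 0.15), and Grn, the progranulin gene, one of -0.39 (SE 0.16). Lamp1, a main protein of the lysosomal membrane, was at 864 to 1569 CPM (median 1129) in Sham and 361 to 1112 CPM (median 524) in ND-Exos, with an adjusted p of 0.403. Man2b1, the lysosomal alpha-mannosidase, had a log2 fold change of -0.65 (SE 0.25) with an adjusted p of 0.467. Lamp1 had a log2 fold change of -0.96 for ND-Exos against Sham and -0.98 for BCAS against Sham. For Man2b1 the BCAS value was 0.18. Of the vacuolar proton pump, which acidifies the lysosome, 11 of 15 subunits were higher, none past the threshold. Its Atp6v0b had 151 to 240.0 CPM (median 209.7) in Sham, 221 to 358 CPM (median 310.1) in ND-Exos and an adjusted p of 0.302.

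Among genes that were higher without passing, Pon3 came first. Pon3 encodes a lactonase of the paraoxonase family. Its libraries spanned 99.3 to 193 CPM (median 160.5) in Sham and 226 to 430.2 CPM (median 324) in ND-Exos, without overlap. The log2 fold change of 1.06 (SE 0.23) had an adjusted p of 0.0556, and the BCAS mean was 209.9 CPM. Maml2, a coactivator of Notch signalling, had 42.4 to 70.7 CPM (median 48.9) in Sham and 75.7 to 159 CPM (median 136) in ND-Exos, a log2 fold change of 1.30 (SE 0.28) and an adjusted p of 0.0607, beside a BCAS mean of 81.2 CPM. Both stood higher in ND-Exos than in the BCAS group by 0.59 and 0.65 on the log2 scale, but the adjusted p of that difference was 0.623 and 0.909. Map3k1, a kinase at the head of the JNK pathway, had a log2 fold change of 1.36 (SE 0.31) with an adjusted p of 0.0674, and its lowest ND-Exos library, replicate 3 at 65 CPM, lay inside the Sham range. Without ND-Exos replicate 3, Pon3, Maml2 and Map3k1 passed, at adjusted p of 0.0357, 0.0357 and 0.0318, and without other libraries the values reached 0.172, 0.194 and 0.227.

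Marcks, Ptp4a2 and Rin2 each had an adjusted p of 0.0802. Marcks, a membrane protein that binds actin and is released by protein kinase C, ran at 381 to 532 CPM (median 451) in Sham and 558 to 850.2 CPM (median 758) in ND-Exos. Ptp4a2, a phosphatase anchored in membranes, ran at 294 to 530.2 CPM (median 444) and 532 to 918 CPM (median 836). Both genes were without overlap between the groups, and Rin2, an activator of the endosomal GTPase Rab5, overlapped slightly, with 203 to 350.1 CPM (median 255) in Sham and 331 to 660.1 CPM (median 462) in ND-Exos. Their log2 fold changes were 0.69, 0.84 and 0.83 for ND-Exos against Sham and 0.84, 0.89 and 0.70 for BCAS against Sham. For actin and motility as a list, 24 of 32 tested members were lower, with a median of -0.25, and none passed. Rac1, the GTPase that drives membrane ruffling and activates the phagocyte oxidase, had the smallest p among the lower ones, with an adjusted p of 0.224. It ran at 456 to 692 CPM (median 621) in Sham and 123 to 509.5 CPM (median 241) in ND-Exos. The log2 fold change was -1.10, beside -0.83 for BCAS against Sham.

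None of the 25 homeostatic genes passed with all libraries in the fit, and 18 were higher and 7 lower. Every ND-Exos library lay above every Sham library in 0 of them, against 0.294% of all tested genes. Of the receptors by which resting microglia are recognised, P2ry12, Gpr34, P2ry13 and Cx3cr1 did so in 5 of the 6 ND-Exos libraries. How many of all tested genes reach 5 of 6 was not counted. P2ry12, the receptor for ADP that directs microglial processes to injury, had 3099.5 to 4428 CPM (median 3759) in Sham and 2966 to 7479 CPM (median 6577) in ND-Exos. The 5 ND-Exos libraries other than replicate 3 were above all Sham libraries, and replicate 3, at 2966 CPM, was below all of them. The log2 fold change was 0.68 (SE 0.19) with an adjusted p of 0.187 over all libraries, and 0.83 with an adjusted p of 0.0318 without replicate 3; leaving out other libraries gave up to 0.425. Gpr34, a receptor for lysophosphatidylserine, ran at 901 to 1323 CPM (median 1159.7) in Sham and 992 to 2536 CPM (median 2067) in ND-Exos, with replicate 3, at 992 CPM, inside the Sham range. Its log2 fold change was 0.71 (SE 0.20) with an adjusted p of 0.214 over all libraries and 0.85 (adjusted p = 0.0434) without replicate 3, with up to 0.425 without another library. Replicate 3 is also the library with the lowest sum of microglial markers, a sum to which P2ry12 and its like belong, and its part in these values beyond leaving it out was not tested. The BCAS libraries, without exosomes, had means of 5346 CPM for P2ry12 and 1494 CPM for Gpr34, with log2 fold changes against Sham of 0.51 and 0.37. ND-Exos against BCAS gave 0.17 and 0.34, each with an adjusted p of 1.

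P2ry13, a related ADP receptor, was at 727 to 1578 CPM (median 1072) in Sham and 1235 to 2638 CPM (median 1923) in ND-Exos, with a log2 fold change of 0.85 (SE 0.24) and an adjusted p of 0.224. Cx3cr1, the fractalkine receptor, had a log2 fold change of 0.34 (SE 0.15) with an adjusted p of 0.6, and Tmem119, a microglial surface protein, one of -0.16 (SE 0.24) with an adjusted p of 1. Tmem119 ran at 1296 to 2270.2 CPM (median 1513) in Sham and 1028 to 1894 CPM (median 1469.7) in ND-Exos, which overlap. BCAS against Sham gave 0.71 for P2ry13, 0.38 for Cx3cr1 and 0.18 for Tmem119. Csf1r, the receptor for the growth factors on which microglia depend, was on the lower side, with a log2 fold change of -0.51 (SE 0.24) and an adjusted p of 0.696, and the transporter Slco2b1 had one of -0.33 (SE 0.21). Trem2, a lipid receptor, was at -0.0066 (SE 0.13). Of 25 homeostatic genes 18 were higher and 7 lower with a median of 0.17, and 7 higher and 1 lower had an unadjusted p under 0.05. That is 32% of the list, against 6.66% of all tested genes and 291 of the 1423 genes above 100 CPM. The median of the homeostatic list for BCAS against Sham was 0.18. Of 9 purinergic receptors and ectoenzymes 7 were higher, with a median of 0.28. The transcription factors of microglial identity were 8 higher and 6 lower. Mef2c, which restrains microglial activation, had 186 to 432 CPM (median 254) in Sham, 335 to 477 CPM (median 396) in ND-Exos and an adjusted p of 0.302. Lair1, an inhibitory receptor for collagen and C1q, had a log2 fold change of 0.49 (SE 0.18) with an adjusted p of 0.367, beside one of 0.90 for BCAS against Sham.

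**Figure D4:**
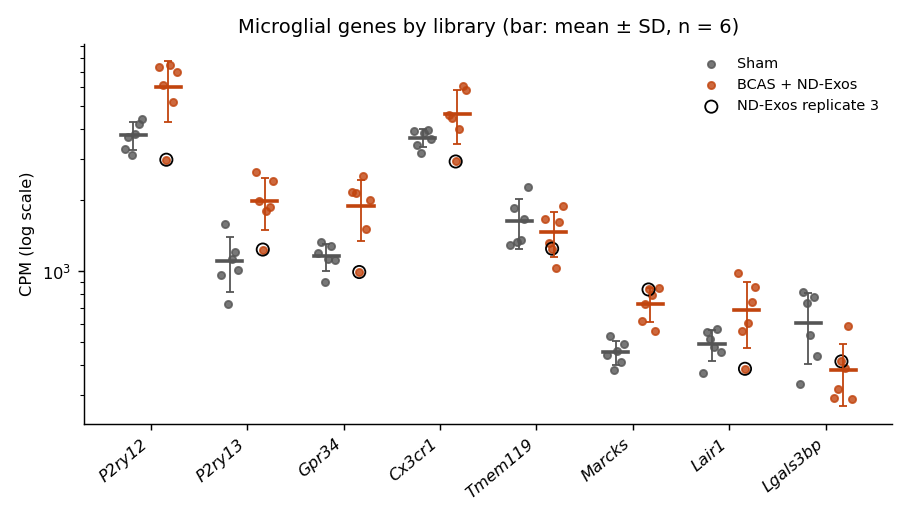
CPM on a log axis of 8 microglial genes, 1 point a library, with the mean and SD of the 6 Sham and 6 ND-Exos libraries and a ring around ND-Exos replicate 3. In P2ry12 the ringed library, at 2966 CPM, is the only ND-Exos library below the Sham libraries, whereas in Marcks, at 837 CPM, it is among the high ones.

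Genes of disease-associated microglia, a state described around plaques and injured white matter, were 13 higher and 13 lower with a median of 0.00, and none passed. Tyrobp, the signalling adaptor of Trem2, was at 3228 to 4749 CPM (median 3958) in Sham and 2605 to 3888 CPM (median 3198) in ND-Exos with an adjusted p of 0.469. Ctsd, the lysosomal protease cathepsin D, had a log2 fold change of -0.47 (SE 0.19) with an adjusted p of 0.5. For complement, 4 of 11 genes were higher and 7 lower. C1qc, a chain of the first complement component, ran at 4028 to 7157 CPM (median 5643) in Sham and 1809.6 to 5157 CPM (median 2925) in ND-Exos with an adjusted p of 0.5. C5ar1, the receptor for C5a, ran at 52.8 to 212 CPM (median 112) in Sham and 153 to 276 CPM (median 229.8) in ND-Exos with an adjusted p of 0.353. Fc receptors and phagocytosis genes were 8 higher and 13 lower of 21, with Fcgr2b, the inhibitory Fc receptor, at a log2 fold change of 0.63 (SE 0.25) and an adjusted p of 0.463.

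Interferon response genes had a median nearer to 0 against Sham than against BCAS, and no member passed against Sham. In ND-Exos against Sham, 15 of 36 were higher and 21 lower, with a median of -0.29 (0.02 without Sham replicate 3), and 2 had an unadjusted p under 0.05, 5.56% of the list against 6.66% of all tested genes. The medians of the same list were 0.89 for BCAS against Sham, 0.97 for WD-Exos against Sham and -1.09 for ND-Exos against BCAS. Lgals3bp, a secreted galectin-binding protein that interferon induces, passed in the direct test against BCAS and not against Sham. It had 332 to 814 CPM (median 635) in Sham and 289 to 584 CPM (median 352) in ND-Exos, which overlap, and the log2 fold change of -0.67 (SE 0.29) had an adjusted p of 0.592. Its BCAS libraries averaged 1303 CPM and its WD-Exos libraries 1719 CPM. The direct test of ND-Exos against BCAS gave -1.78 with an adjusted p of 0.0115. Ifi27l2a, another interferon-induced gene, was at 26.7 to 210.2 CPM (median 60.6) in Sham and 16.6 to 91.2 CPM (median 38.2) in ND-Exos, with a BCAS mean of 174 CPM and an adjusted p of 0.577 for ND-Exos against BCAS.

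Antigen presentation and inflammatory signals gave no call against Sham. Of 23 genes of MHC class I presentation 8 were higher and 15 lower. Psme1, a subunit of the proteasome activator induced by interferon, ran at 235 to 418 CPM (median 307) in Sham and 178 to 236 CPM (median 216) in ND-Exos with an adjusted p of 0.373. Of 10 class II genes 3 were higher and 7 lower. Of 22 cytokines and NF-kB targets 15 were higher, with a median of 0.20. Tnf, the tumour necrosis factor gene, had 0 to 10.3 CPM (median 0.0172) in Sham and 0.0396 to 79.4 CPM (median 19.6) in ND-Exos, beside means of 76.3 CPM in BCAS and 108 CPM in WD-Exos, and an adjusted p of 0.724. Il6 had no count in any Sham library and a count in 1 ND-Exos library (5.27 CPM), beside 3 BCAS and 6 WD-Exos libraries. Of 12 chemokines 7 were higher, and Ccl4 ran from 0.385 to 265 CPM within the ND-Exos group alone.

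Immediate early genes, which cells switch on within minutes of a stimulus, were higher in 21 of 23, the list furthest above 0, with a median of 0.88. None passed, and 1 higher and 1 lower had an unadjusted p under 0.05 (8.7% of the list, against 6.66% of all tested genes). Btg2, which restrains cell division, ran at 88.3 to 638 CPM (median 455) in Sham and 476 to 1422 CPM (median 1166) in ND-Exos with an adjusted p of 0.391. The medians of the list against Sham were 1.29 in BCAS and 2.13 in WD-Exos. Heat shock proteins and chaperones were 9 higher and 12 lower. Hsp90ab1, the constitutive cytosolic Hsp90, was at 1262 to 1969 CPM (median 1560.1) in Sham and 834 to 1334 CPM (median 1096) in ND-Exos (adjusted p = 0.187), and Hspa5, the chaperone of the endoplasmic reticulum, had a log2 fold change of 0.43 (SE 0.20) with an adjusted p of 0.673.

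Energy metabolism gave no call, and the medians of its lists lay between -0.21 and 0.14. Of complexes II to V of the respiratory chain 28 of 41 genes were lower, with a median of -0.21. An unadjusted p under 0.05 was found for 7 lower and 0 higher genes, 17.1% of the list, against 6.66% of all tested genes. Among the 1423 genes above 100 CPM, 291 had such a p, a larger share than in this list. The list's median for BCAS against Sham was -0.20. Atp5e, a subunit of ATP synthase, was at 142 to 234 CPM (median 155) in Sham and 97.5 to 155 CPM (median 102) in ND-Exos, with an adjusted p of 0.302. In complex I, 22 of 37 were lower with a median of -0.05. Its Ndufb3 ran at 74.3 to 124 CPM (median 95) in Sham and 43.6 to 68.2 CPM (median 62.8) in ND-Exos, without overlap, and had an adjusted p of 0.326. The tricarboxylic acid cycle list was 13 higher and 10 lower. Cs, the citrate synthase gene, stood on the lower side, with 135 to 221 CPM (median 174) in Sham, 55.4 to 138 CPM (median 102) in ND-Exos and 196 CPM as the BCAS mean. Its log2 fold change was -0.82 (SE 0.23) against Sham, with an adjusted p of 0.187, and -0.99 (adjusted p = 0.492) against BCAS.

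In glycolysis 11 of 20 genes were lower, and Gapdh led them. It had 2172 to 2633 CPM (median 2426) in Sham and 1073 to 1966 CPM (median 1638) in ND-Exos, without overlap, and a log2 fold change of -0.58 (SE 0.15) with an adjusted p of 0.146. Pkm, the pyruvate kinase gene, had a log2 fold change of -0.75 (SE 0.29) with an adjusted p of 0.469. The BCAS values against Sham were -0.46 for Gapdh and -0.24 for Pkm. Fatty acid oxidation had 12 of 19 genes lower, none with an unadjusted p under 0.05, and lipid uptake, storage and cholesterol handling had 17 of 31 lower with 1 higher gene at that level (3.23% of the list), Mylip, the ligase that degrades the LDL receptor, with a log2 fold change of 0.58 (SE 0.28). The phagocyte NADPH oxidase list was 4 higher and 4 lower. Ncf1, its cytosolic p47 subunit, ran at 372 to 586 CPM (median 424) in Sham and 185 to 524 CPM (median 256) in ND-Exos with an adjusted p of 0.366, beside a BCAS mean of 541 CPM. Nfe2l2, which encodes NRF2, the regulator of antioxidant genes, ran at 173 to 285 CPM (median 212) in Sham and 263 to 506 CPM (median 338) in ND-Exos with an adjusted p of 0.146. Its list of antioxidant genes had 15 of 24 lower.

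The remaining lists had no call either. Of 29 genes of endosomal sorting and exosome uptake 13 were higher and 16 lower. Picalm, a clathrin adaptor, had a log2 fold change of 0.74 (SE 0.25) with an adjusted p of 0.326, and Clta, a clathrin light chain, one of -0.50 (SE 0.19) with an adjusted p of 0.391. The TGF-beta pathway had 9 of 11 higher. Skil, a repressor within that pathway, ran at 94.7 to 154 CPM (median 132) in Sham and 162 to 314 CPM (median 193) in ND-Exos, without overlap. Its log2 fold change was 0.73 with an adjusted p of 0.302, beside 0.96 for BCAS against Sham. Autophagy genes were 10 higher and 18 lower, the proteasome 12 and 19, hypoxia genes 7 and 7, inhibitory receptors 12 and 4, and cell cycle genes 10 and 7. In the proteasome, hypoxia and cell cycle lists no gene had an unadjusted p under 0.05.

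**Figure D5:**
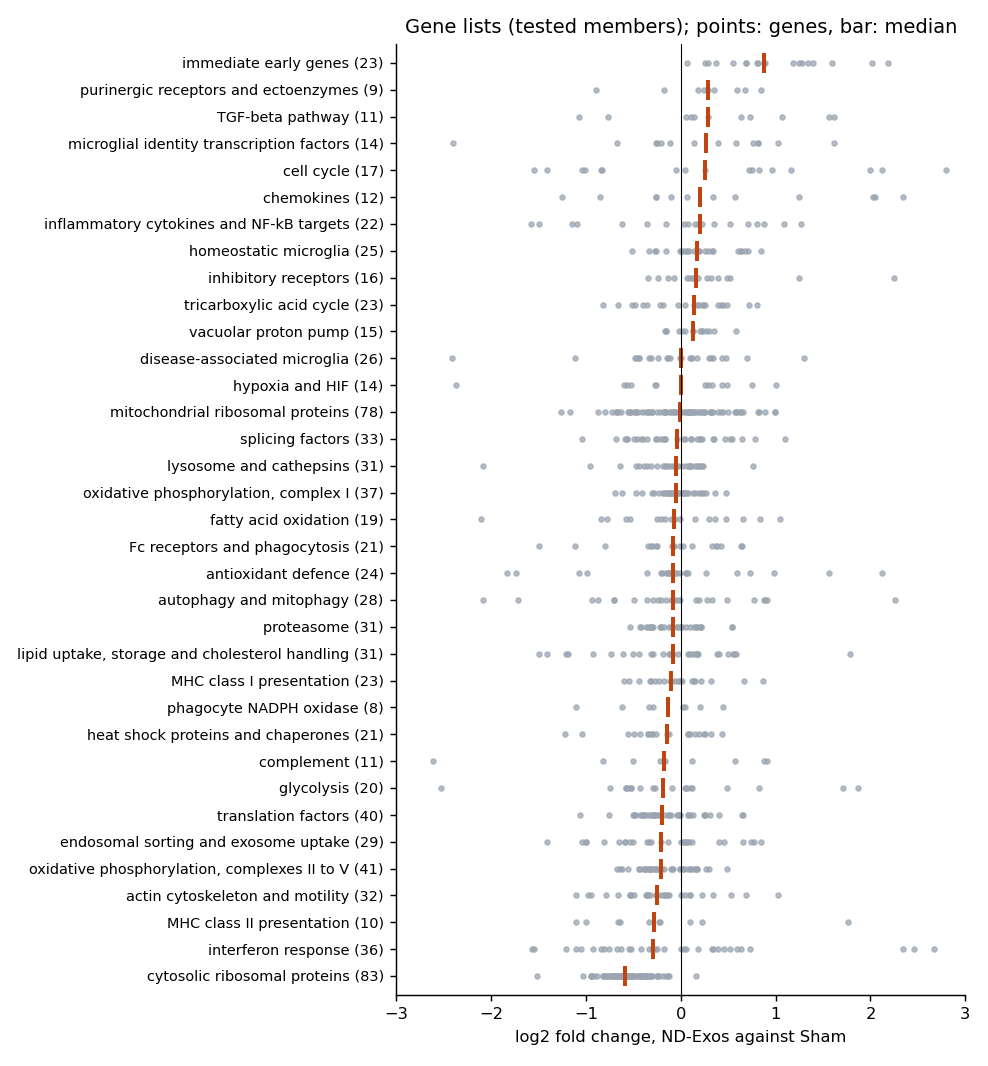
Fitted log2 fold change of ND-Exos against Sham for the tested members of each gene list, 1 point a gene, with the list's median as a bar and its number of tested members in brackets. The cytosolic ribosomal proteins have the lowest median (-0.58) and the immediate early genes the highest (0.88), and 82 of the 83 ribosomal points lie below 0. The 14 members beyond a log2 fold change of 3 in either direction are not drawn.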

How the data were processed

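The deposited table holds the authors' estimated counts per Entrez gene, neither scaled nor transformed, of which 76.8% of genes with values were whole in every library. Of 22064 identifiers 6186 were blank throughout, and 1 text entry after the last library column was ignored. Which aligner, counter, build and annotation they used is not given in the sources used here. Symbols came from the RefSeq gene table, assembly GRCm38.p6, matching 22002 identifiers.

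Counts were rounded, filtered with filterByExpr (minimum count 10), scaled by TMM and tested with edgeR 4.0.16 (R 4.3.3; robust quasi-likelihood F test, Benjamini-Hochberg over 10219 genes, threshold 0.05). All 24 libraries entered 1 fit with 4 group means. The SE is the absolute log2 fold change divided by the square root of F. Alternatives used limma 3.58.1 (voom) and DESeq2 1.42.0, other scaling, filters and samples, a replicate block, a covariate, and each library left out. The procedure was run on 3 simulated data sets with 200 changed genes each, all above 100 CPM. It recovered 45% of 2-fold and 96% of 4-fold changes, and called a mean of 3.67 unchanged genes per simulation. Figures used matplotlib 3.10.9. Lengths are medians over GENCODE vM21 transcripts.

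In each direction up to 12 genes that passed, had an established symbol and were counted throughout the higher group were named, otherwise filled up to 10 by smallest p. From each of 35 lists with at least 5 tested members came up to 3 past the threshold or else the 2 of smallest p. P2ry12, Tmem119, Cx3cr1, Lgals3bp, Marcks, Lair1 and Qk were set because earlier results name them. Outside this rule, chosen after their values were seen, are Rpsa, Rpl39, Rpl7l1, Rps7, Rps19, Rpl15, Rpl27a, Rpl10, Csf1r, Slco2b1, Trem2, Psap, Grn, Ucp2, Septin2, Rasgrp3 and Nsmce3. Some genes that the rule picked are left out of the text. Comparison, members and lists were chosen with earlier results of these data known. The deviations of same-numbered ND-Exos and Sham libraries from their group means had correlations of -0.182 to 0.105. With so few libraries these cannot settle whether same-numbered samples were processed together, which the labels do not say. Smart-seq2 reads are PCR copies and carry no molecular identifiers, so they do not count independent molecules.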

Additional observations from a re-analysis of the deposited data

Results flagged for a closer look

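Of 84 sets of 6 values examined, 14 had a library far from the other 5. This was judged by the gap to the nearest library over the whole range. Chance flags about 1 in 20 sets only where values follow a normal distribution. Sums of scarce markers were skewed. Ependymal markers in Sham, for example, had 79.7 CPM in replicate 3 and a median of 2.68 CPM in the others. The number of flags can therefore not be compared with that rate. Among genes past the threshold, Macf1 had its lowest Sham value, 23.1 CPM, in replicate 4, against a median of 103 CPM in the others. Rpl30 had its highest Sham value, 771 CPM, in replicate 3, and Arsb its highest, 891 CPM, in Sham replicate 2. Rps4x had its lowest ND-Exos value, 505 CPM, in replicate 1.

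The summed oligodendrocyte markers were far above the rest in Sham replicate 4 (13697 CPM) and in ND-Exos replicate 3 (8208 CPM). ND-Exos replicate 3 also stood out in markers of oligodendrocyte precursors (146 CPM), neurons (76.4 CPM) and ependymal cells (59.5 CPM) and in detected genes (10603). Other far values were neuronal markers in Sham replicate 1 (351 CPM), mural cell markers in Sham replicate 2 (1027 CPM), ependymal markers in Sham replicate 3 (79.7 CPM) and erythroid markers in Sham replicate 1 (2.05 CPM). These are library composition values, and their part in the 11 calls was not tested beyond leaving libraries out.

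The departure of Lgals3bp from Sham differed between ND-Exos and BCAS by -1.78 on the log2 scale (edgeR's quasi-likelihood test of ND-Exos against BCAS, adjusted p = 0.0115).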

How the results depend on the processing

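The direction of the ribosomal protein genes held in all 22 alternatives: 80 to 82 members were lower, with a median between -0.61 and -0.50. The count of 11 genes past the threshold did not hold. It was 4 without a filter on low counts (2404 genes at an unadjusted p under 0.05), 7 with only the 12 libraries, 45 with voom (1061 unadjusted) and 225 with DESeq2, and 0 with Sham replicate 4 and ND-Exos replicate 3, the libraries with most oligodendrocyte markers, left out (smallest adjusted p 0.0531; 841 unadjusted) or with Sham replicates 1 and 3, those with most border macrophage markers, left out (0.224; 673 unadjusted), the last 2 settings chosen after seeing the data. All 11 were among the calls of voom and DESeq2. Leaving out single libraries gave 0 to 25: 0 without Sham replicate 1, 3, 4, 5 or 6 or ND-Exos replicate 1, 4 or 6, 1 without ND-Exos replicate 5, 2 without ND-Exos replicate 2, 5 without Sham replicate 2 and 25 without ND-Exos replicate 3, of which 8 were among the 11. Unadjusted counts over these fits were 617 to 827. With the replicate number as a block the count was 0 (smallest adjusted p 0.0600, 683 unadjusted); the pairing is not given by the labels, and 0 of 6 libraries correlated best with their own number. The cause of these changes was not tested. No call changed direction in any setting; 19 of 34 list medians kept their sign throughout, and cell cycle genes ranged from -1.13 to 1.31. Precision limits what could be called: the SE had a median of 1.1 over all tested genes and of 0.24 above 100 CPM.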

Other observations

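Nsmce3, a subunit of the SMC5/6 complex of DNA repair, was counted in all 6 Sham libraries, at 96 to 523 counts (3.67 to 21.4 CPM), and in 1 ND-Exos library with 1 count, the other 5 being at 0. BCAS libraries had 0 to 858 counts, with 0 in replicate 3, and WD-Exos libraries 0 to 518. By edgeR's quasi-likelihood test its adjusted p against Sham was 0.0781, and the gene was picked after its values were seen. No gene was counted in every library of one group and in none of the other.

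Ucp2, an uncoupling protein of the mitochondrial inner membrane, was at 1119.8 to 1883 CPM (median 1414) in Sham and 509.8 to 1100.2 CPM (median 903) in ND-Exos, without overlap. Its log2 fold change was -0.70 (SE 0.17) with an adjusted p of 0.0781, beside -0.13 for BCAS against Sham and -0.58 (adjusted p = 0.577) for ND-Exos against BCAS.

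Without ND-Exos replicate 3, 25 genes passed, 13 of them ribosomal protein genes. Septin2, a cytoskeletal GTPase, then had an adjusted p of 0.0357, against 0.11 with all libraries and up to 0.303 without another. Its level was 236 to 402 CPM (median 354) in Sham and 343 to 847 CPM (median 724) in ND-Exos, where replicate 3 was the lowest. Rasgrp3, an activator of Ras and Rap, passed at 0.0392, against 0.302 with all libraries and up to 0.473 without another, and its replicate 3 stood at 117 CPM in a group with a median of 449 CPM.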
